A study of Mus musculus with 46 samples.

Results

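The genes described here are the heterogeneous nuclear ribonucleoprotein (hnRNP) and SR splicing factor families of mouse microglia. They were taken as every gene symbol made of Hnrnp or Srsf followed by lower-case letters or digits. Of 54134 gene symbols in the count table, 31 matched, 20 in the Hnrnp family and 11 in the Srsf family, and none had 0 counts in every library. After the filter on low counts 29 could be tested, all 20 Hnrnp genes and 9 Srsf genes. Srsf4 held 131 counts over 39 libraries and Srsf12 held 15 counts over 11 libraries, and neither passed. Both encode SR proteins.

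RNA-seq counts came from 46 libraries of microglia, the resident macrophages of the brain. Of these, 22 came from wild-type mice (WT) and 24 from 5xFAD mice, which the labels call AD and which carry human amyloid precursor protein and presenilin transgenes with familial Alzheimer's disease mutations, driven in neurons by the Thy1 promoter. They ate a zero fiber diet, a control diet, or a HAMSAB diet, which holds a resistant maize starch modified with acetate and butyrate. Each of the 6 diet and genotype groups had 8 libraries of both sexes, except WT on zero fiber, which had 6. The labels used here give neither age nor time on the diet, and do not say that each library was a separate mouse, so the tests measure the spread between libraries, which may be technical.

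Before a messenger RNA leaves the nucleus, its introns are cut out by the spliceosome, and SR and hnRNP proteins decide which splice sites are used. SR proteins carry a domain rich in arginine and serine and typically bind exonic enhancers, where they recruit spliceosome parts. Many hnRNPs coat nascent RNA and often silence nearby sites, and members of both families also act in RNA export, stability and translation.

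Total counts ran from 52114 to 6950429 per library. The lowest total belonged to zero fiber AD male replicate 2, and the next lowest was 783849. Genes of the sex chromosomes went against the label of zero fiber AD female replicate 1. Neither of these libraries enters the WT comparisons or the comparison of genotypes on HAMSAB, other than through the shared estimate of the spread. The 10 microglia markers summed to group means between 32293 and 36117 CPM (counts scaled to a common library size adjusted by TMM, as described with the processing), and neuron markers to between 6.73 and 16.1 CPM. The library titles carry a number, below 2900 in 23 libraries (the lower series), 2900 or above in 22 (the higher series), and neither in 1. The labels do not say what this number stands for.

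The windows before the start of 4 of the 6 members called below are shown here, those free of annotated exons. The windows of Hnrnpl and Srsf2 are not printed, since 218 and 50 of their 250 bases lie in annotated exons, and that of Hnrnpl begins inside the annotated gene. RefSeq windows (GRCm38.p6) were matched for 29 of the 31 members, and 41 windows in all, and the 250 bases before each start were read. Each sequence runs 5′ to 3′ on the strand of its gene, and capitals mark GC boxes (GGGCGG) and CCAAT boxes (CCAAT) found on either strand.
Hnrnpul1: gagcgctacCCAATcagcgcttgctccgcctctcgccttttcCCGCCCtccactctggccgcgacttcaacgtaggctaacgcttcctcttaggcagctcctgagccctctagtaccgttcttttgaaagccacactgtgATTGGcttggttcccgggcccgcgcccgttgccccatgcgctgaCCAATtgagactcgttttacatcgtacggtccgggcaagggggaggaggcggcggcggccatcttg
Hnrnpu: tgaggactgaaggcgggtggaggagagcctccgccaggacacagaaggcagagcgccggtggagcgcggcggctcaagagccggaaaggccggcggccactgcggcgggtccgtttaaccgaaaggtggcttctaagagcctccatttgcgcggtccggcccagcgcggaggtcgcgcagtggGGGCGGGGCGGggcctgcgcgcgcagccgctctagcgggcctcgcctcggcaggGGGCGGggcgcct
Hnrnpa0: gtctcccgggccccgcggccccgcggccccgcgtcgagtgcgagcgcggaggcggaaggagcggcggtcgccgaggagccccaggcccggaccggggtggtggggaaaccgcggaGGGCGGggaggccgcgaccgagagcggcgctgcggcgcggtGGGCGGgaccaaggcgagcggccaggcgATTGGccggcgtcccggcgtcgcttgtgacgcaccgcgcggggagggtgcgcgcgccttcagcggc
Srsf9: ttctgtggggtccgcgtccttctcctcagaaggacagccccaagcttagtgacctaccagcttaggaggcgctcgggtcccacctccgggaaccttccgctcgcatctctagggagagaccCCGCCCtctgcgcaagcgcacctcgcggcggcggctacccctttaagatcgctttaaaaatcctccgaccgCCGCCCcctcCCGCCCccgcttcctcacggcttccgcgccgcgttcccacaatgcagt
These windows lie at chr7:25754760-25755009 (minus strand), chr1:178337816-178338065 (minus strand), chr13:58128557-58128806 (minus strand) and chr5:115326927-115327176 (plus strand), and none overlaps an exon of the GENCODE annotation. A GC box was present in 80.5% of the 41 member windows and in 32.7% of all 32851 windows. CCAAT was present in 48.8% of member windows and 33.8% of all, and TATAAA in 7.32% and 12.4%. The median GC content was 68% in member windows and 52.4% over all. All 4 windows shown held a GC box, and those of Hnrnpul1 and Hnrnpa0 also held a CCAAT box. A match is a description of these letters and not evidence of a bound factor.

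Levels between genes were compared as CPM per kilobase of annotated exon, as means ± SD over the 46 libraries. Srsf9, an SR protein that acts in alternative splice-site choice, had the highest level of all members, 151 ± 23.3 CPM per kb. The highest Hnrnp level was that of Hnrnpa2b1, which binds RNA for transport and reads methylated adenosines, at 77.4 ± 20.3 CPM per kb. Srsf2, also known as SC35 and long used to mark nuclear speckles, followed at 67.3 ± 41.2 CPM per kb. Hnrnpa0, which binds AU-rich elements of cytokine messenger RNAs, stood at 60.3 ± 12.7, Hnrnpl, which binds CA repeats, at 59.2 ± 24.4, and Srsf7, a splicing and export factor, at 59.0 ± 8.52 CPM per kb. The ranges of mean ± SD of Srsf2, Hnrnpa0, Hnrnpl and Srsf7 overlap. The lowest tested Hnrnp genes were Hnrnpll, the paralog of Hnrnpl known for CD45 splicing in T cells, at 2.64 ± 0.50, and the X-linked Hnrnph2 at 6.82 ± 1.58 CPM per kb. The lowest tested Srsf genes were Srsf1, the prototype of the family, at 14.6 ± 3.29, and Srsf10, which represses splicing when dephosphorylated, at 21.5 ± 5.31 CPM per kb. The paralogs Hnrnpl and Hnrnpll therefore sat near opposite ends of the Hnrnp range.

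Members also differed in how much they varied between libraries. The coefficient of variation over all libraries was 61.2% for Srsf2, 41.6% for Hnrnpul1 and 41.2% for Hnrnpl. The lowest among tested members was 10.4% for Hnrnpm, an hnRNP of nuclear RNA named here after its values were seen.

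In WT microglia, 6 members were higher on HAMSAB than on zero fiber, 4 Hnrnp and 2 Srsf genes, and none was lower. The edgeR quasi-likelihood test called 1.86% of all 12121 tested genes higher in this comparison, 0.322% lower and thus 2.19% in either direction, at a Benjamini-Hochberg adjusted p under 0.05. The 6 were Hnrnpl, Hnrnpul1, Hnrnpu, Hnrnpa0, Srsf9 and Srsf2. Of the 20 tested Hnrnp genes 14 had a log2 fold change above 0, with a median of 0.10, and of the 9 Srsf genes 6 did, with a median of 0.09, against a median of 0.00 over all tested genes.

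Hnrnpl (chromosome 7) ran from 174 to 384 CPM in the 6 WT zero fiber libraries, with a median of 235, and from 387 to 732 CPM in the 8 WT HAMSAB libraries, with a median of 538. All 8 HAMSAB libraries lay above all 6 zero fiber libraries, narrowly, at 387 against 384 CPM. How many of all tested genes separate in this way, here or in the comparisons below, was not counted. The called genes were picked by a test on the same libraries, so their separation adds no support to it. Hnrnpl rose 2.28-fold (log2 fold change 1.19 ± 0.25 SE, edgeR adjusted p = 0.00706).

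Hnrnpul1 (chromosome 7) encodes an RNA-binding protein related to hnRNP U that acts in transcription and the DNA damage response. It ran from 219 to 417 CPM on zero fiber (median 272) and from 430 to 725 CPM on HAMSAB (median 589), again without overlap. It rose 2.16-fold (log2 1.11 ± 0.25, edgeR adjusted p = 0.0124). Hnrnpu (chromosome 1), which encodes scaffold attachment factor A, an abundant nuclear protein that binds DNA and RNA, ran from 359 to 493 CPM on zero fiber (median 402) and from 489 to 698 CPM on HAMSAB (median 590). The groups overlapped slightly, at the highest zero fiber and lowest HAMSAB library. Cox20, on the other strand, shares 6.93% of the Hnrnpu exons. Hnrnpu rose 1.47-fold (log2 0.55 ± 0.12, edgeR adjusted p = 0.0107).

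Hnrnpa0 (chromosome 13) ran from 113 to 170 CPM on zero fiber (median 143) and from 175 to 247 CPM on HAMSAB (median 197), without overlap. It rose 1.46-fold (log2 0.54 ± 0.14, edgeR adjusted p = 0.0329). Srsf9 (chromosome 5) ran from 184 to 266 CPM on zero fiber (median 215) and from 269 to 347 CPM on HAMSAB (median 292). Its groups did not overlap either, and it rose 1.35-fold (log2 0.44 ± 0.11, edgeR adjusted p = 0.0290).

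Srsf2 (chromosome 11) had the largest fold of the 6 but spread widely. It ran from 93.7 to 187 CPM on zero fiber (median 138) and from 98.1 to 508 CPM on HAMSAB (median 425), and was called 2.48-fold higher (log2 1.31 ± 0.36, edgeR adjusted p = 0.0400). The HAMSAB libraries split by title number: the 5 of the lower series ran from 394 to 508 CPM and the 3 of the higher series from 98.1 to 203 CPM. As differences of mean log2 CPM, Srsf2 was 1.96 higher on HAMSAB within the lower series (5 against 4 libraries) and -0.26 within the higher series (3 against 2), so its difference did not hold within the higher series. Part of the Srsf2 exons is shared with genes on the other strand, 15.6% with Mettl23 and 9.74% with Mfsd11, and the strand setting of the counting is not given in the sources used here.

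The other 5 called genes were higher on HAMSAB within both title series. Within WT on HAMSAB, though, Hnrnpl and Hnrnpul1 also split by series. Hnrnpl ran from 480 to 732 CPM in the lower and from 387 to 445 CPM in the higher series. Hnrnpul1 ran from 547 to 725 CPM in the lower and from 430 to 502 CPM in the higher series. The differences of mean log2 CPM in the lower and higher series were 1.21 and 1.02 for Hnrnpl, 1.16 and 0.90 for Hnrnpul1, and 0.56 and 0.48 for Hnrnpu. They were 0.55 and 0.45 for Hnrnpa0, and 0.48 and 0.23 for Srsf9. All differences within a title series given in this report leave the sexes unweighted. The WT zero fiber libraries of the higher series were all female. The WT zero fiber group has only 2 male libraries. Without male replicate 1, or without male replicate 2, none of the 6 was called (for Hnrnpl, log2 1.12, edgeR adjusted p = 0.107, and log2 1.26, adjusted p = 0.0707), each fit leaving a single library in that sex, assumed to vary like the other groups. Of all tested genes, 12 and 1 were called in these fits, against 265 with all libraries. Over the 14 fits that left out 1 library each, Hnrnpl, Hnrnpul1 and Hnrnpu were each called in 12, Srsf9 in 7, Hnrnpa0 in 6 and Srsf2 in 3. The count fell to 3 without HAMSAB female replicate 1 or 2, HAMSAB male replicate 3 or zero fiber female replicate 3. How many of all genes were called without each of these libraries is not given here.

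**Figure D1:**
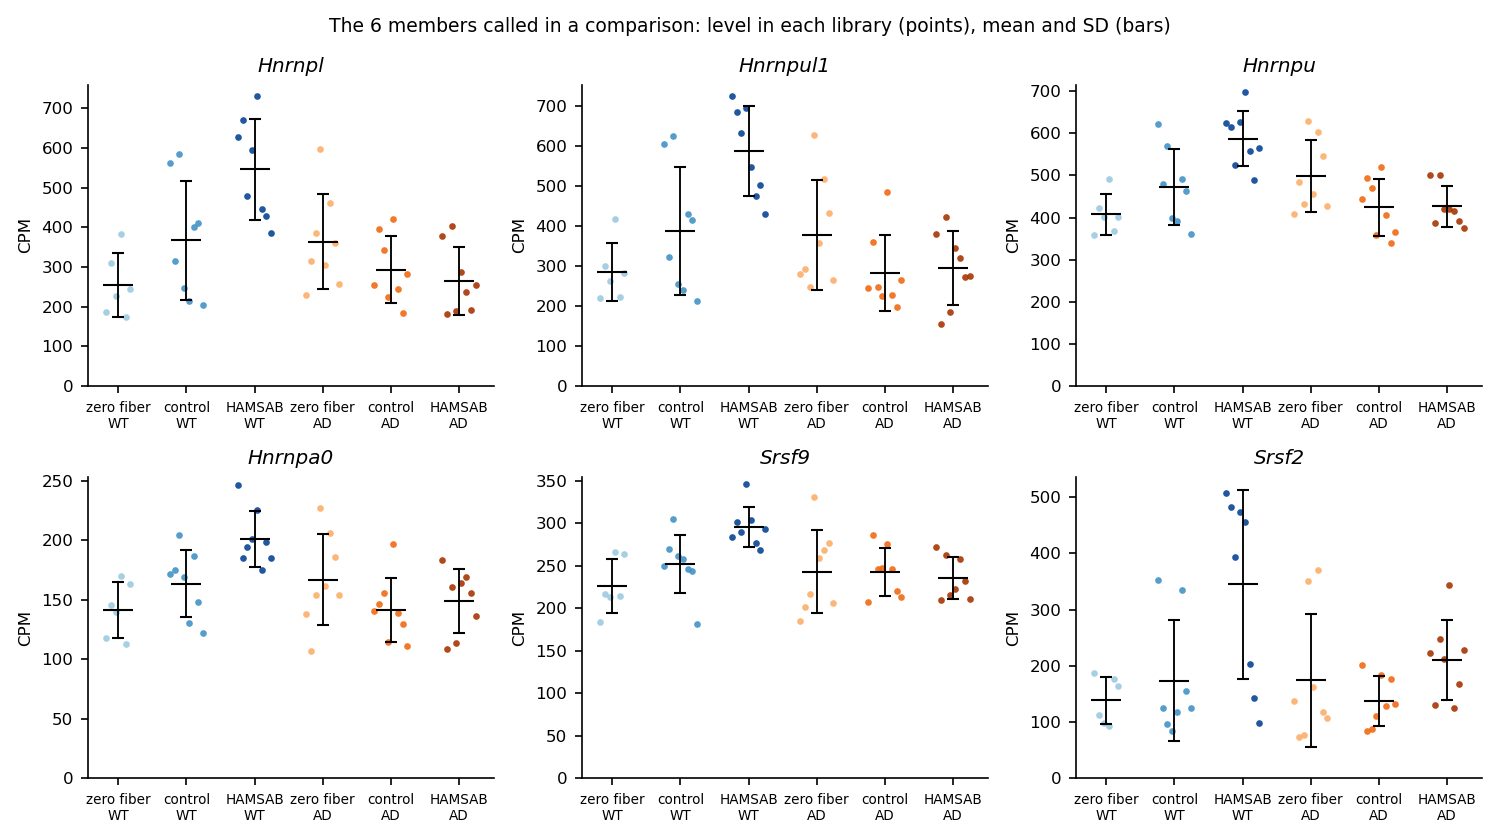
CPM of the 6 called members (vertical axis, from 0) in each library (points), by diet and genotype (horizontal axis), with the mean (wide bar) and SD (error bars) of each group. In WT the 8 HAMSAB libraries lie above all 6 zero fiber libraries for Hnrnpl, Hnrnpul1, Hnrnpa0 and Srsf9, a separation not counted over all tested genes. Srsf2 on HAMSAB splits into 5 high and 3 low libraries.

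Other measures also differed between WT on HAMSAB and WT on zero fiber. The sum of 3 nuclear-retained RNAs was 19367 ± 4616 CPM (SD, n = 8) on HAMSAB and 15862 ± 3168 CPM (n = 6) on zero fiber, and Malat1, a nuclear RNA of speckles, was called in the F test among the 6 groups described below (edgeR adjusted p = 0.0414). The sum of 5 erythroid markers was 61.3 ± 58.3 CPM on HAMSAB, with 1 of the 5 at 0 in every library, and 288 ± 300 CPM on zero fiber, with none at 0 throughout. It was 53.5 ± 27.8 CPM in WT on control and 162 ± 130 CPM in AD on zero fiber. The erythroid means were thus highest on zero fiber in both genotypes. The 10 microglia markers summed to 32293 ± 2178 CPM in WT on HAMSAB and 35205 ± 2685 CPM in WT on zero fiber. The part of these in the results was not tested, and in bulk samples fewer cells of a type and less RNA per cell cannot be told apart.

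On the HAMSAB diet, the genotypes differed in 3 members, all lower in AD than in WT, where edgeR called 1.47% of all tested genes lower, 0.215% higher and 1.68% in either direction. The WT HAMSAB libraries serve in this comparison too, so it is no independent replicate of the one above. Hnrnpl ran from 182 to 403 CPM in the 8 AD HAMSAB libraries (median 246), and all but the highest of them lay below the lowest WT library. It fell by 1.05 on the log2 scale (SE 0.22, edgeR adjusted p = 0.00481). Hnrnpul1 ran from 155 to 422 CPM in AD (median 298), below every WT library, and fell from a mean of 586 ± 112 CPM in WT to 294 ± 91.8 CPM in AD (SD, with an SE of 0.22 on the log2 fold change and an edgeR adjusted p = 0.00737). Hnrnpu ran from 375 to 502 CPM in AD (median 418) and fell by 0.47 (SE 0.11, edgeR adjusted p = 0.0136), with overlap between the groups. Without AD male replicate 2 Hnrnpu was no longer called (edgeR adjusted p = 0.0520). Within the lower and higher title series the differences of mean log2 CPM were -1.17 and -0.97 for Hnrnpl, -1.24 and -0.66 for Hnrnpul1, and -0.47 and -0.41 for Hnrnpu (5 AD against 5 WT libraries in the lower and 2 against 3 in the higher series). The AD libraries of the higher series were all female. The AD library in neither series, female replicate 4, is left out of these values.

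Other measures differed between these groups as well. In AD and WT on HAMSAB, 4 choroid plexus markers summed to 183 ± 70.1 and 93.1 ± 48.0 CPM, and 7 perivascular macrophage markers to 32.3 ± 8.71 and 50.1 ± 16.7 CPM (SD, n = 8 each), with no marker of either list at 0 throughout a group. The microglia markers summed to 35737 ± 3001 and 32293 ± 2178 CPM, and the nuclear-retained RNAs to 15858 ± 1476 and 19367 ± 4616 CPM. Their part in the result was not tested.

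The other 3 genes that rose in WT did not pass here. Hnrnpa0 gave a log2 fold change of -0.44 ± 0.13 (edgeR adjusted p = 0.0580), Srsf9 of -0.33 ± 0.10 (adjusted p = 0.0835) and Srsf2 of -0.73 ± 0.30 (adjusted p = 0.283). No Srsf gene was called, and 3 of the 9 had an unadjusted p under 0.05, as had 1455 of all 12121 tested genes. This count depended on the method: the DESeq2 test called 5 members lower, adding Hnrnpa0 and Srsf9, and voom 6, adding Srsf10 as well. Over all genes these tests called 274 and 382, against 204 with edgeR. The median log2 fold change was -0.08 for the Hnrnp and -0.07 for the Srsf genes.

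**Figure D2:**
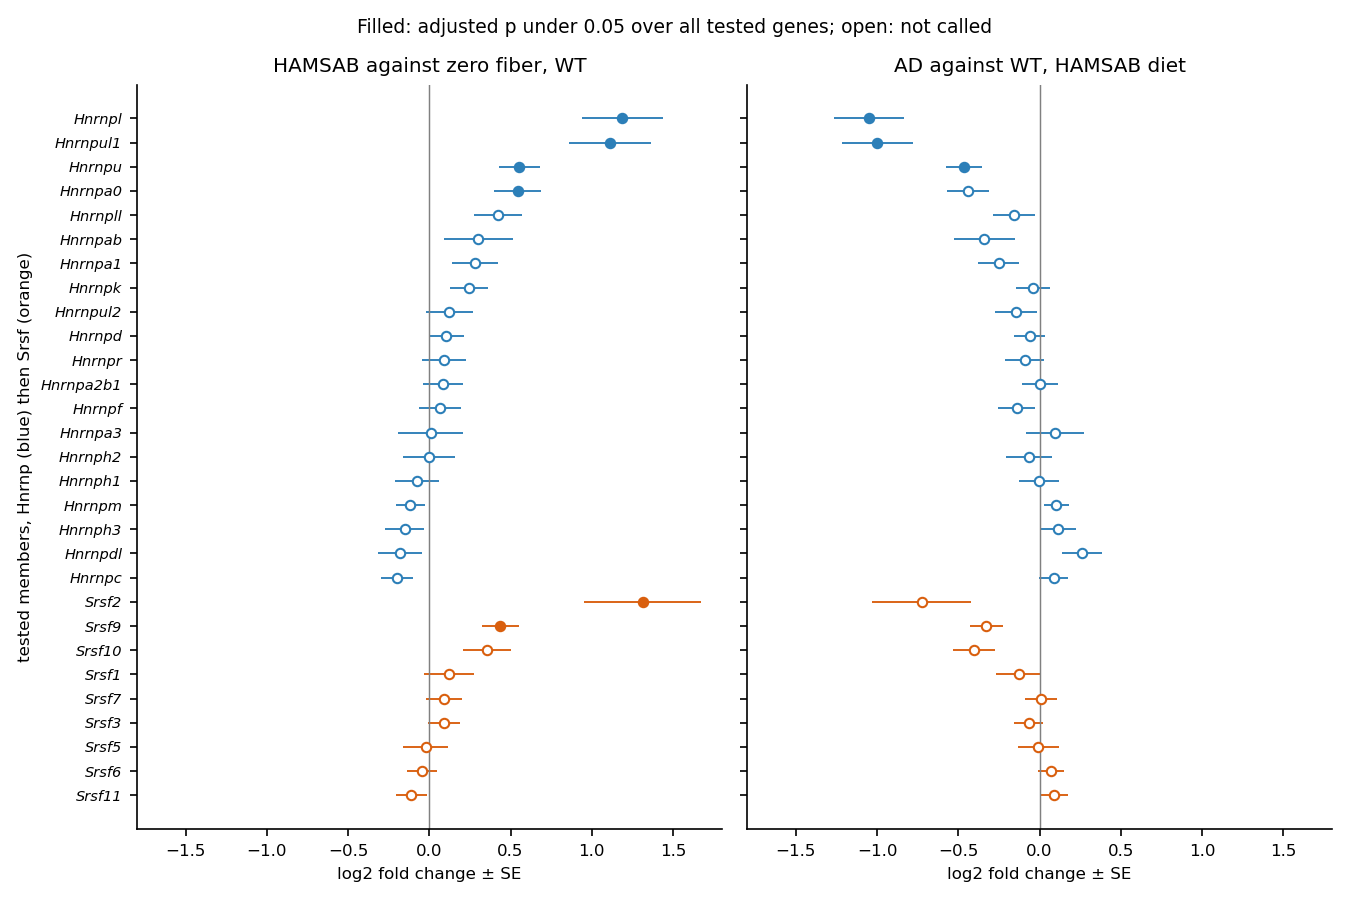
Log2 fold change ± SE (horizontal axes, same scale) of the 29 tested members, Hnrnp in blue and Srsf in orange, for HAMSAB against zero fiber in WT (left) and AD against WT on HAMSAB (right); filled points are called. In the left panel 6 points are filled, all to the right of 0, and in the right panel 3 are filled, all to the left.

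The response to HAMSAB against zero fiber was then compared between the genotypes in the same fit. It was lower in AD than in WT for 4 members, all Hnrnp genes, where edgeR called 1.02% of all tested genes lower, 0.0578% higher and 1.08% in either direction. Hnrnpl rose by 1.19 in WT, and its log2 fold change in AD was -0.47 ± 0.22 (edgeR adjusted p = 0.442); the difference was -1.66 ± 0.33 (adjusted p = 0.00708). The same difference was -1.52 ± 0.33 for Hnrnpul1 (edgeR adjusted p = 0.0122), -0.80 ± 0.17 for Hnrnpu (adjusted p = 0.00881) and -0.73 ± 0.20 for Hnrnpa0 (adjusted p = 0.0479). No Srsf gene passed: Srsf9 gave -0.50 ± 0.15 (edgeR adjusted p = 0.109) and Srsf2 -1.14 ± 0.47 (adjusted p = 0.364). In AD the mean log2 CPM of Hnrnpl differed between HAMSAB and zero fiber by -0.40 in the lower and by -0.66 in the higher title series.

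These differences draw on the zero fiber AD libraries. Hnrnpl ran from 230 to 597 CPM there (median 339, n = 8), with the top value in male replicate 3. Without that library the difference for Hnrnpl was -1.46 (edgeR adjusted p = 0.0503) and no member was called. Without WT zero fiber male replicate 1 it was -1.59 (edgeR adjusted p = 0.0579), and again no member was called. Without the library of lowest depth and the library whose sex genes go against its label, Hnrnpl gave -1.72 (edgeR adjusted p = 0.00463). In that fit 5 members were called, Srsf9 being the fifth, and 155 of all tested genes, against 131 with every library. Of all tested genes, 6 were called without AD male replicate 3 and 21 without WT male replicate 1, against 131. Hnrnpa0 was the least stable of the 4. It was called in 8 of the 30 fits that left out 1 library, where the other 3 genes were each called in 28, and not with a term for the title series (edgeR adjusted p = 0.0655).

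An F test over the 6 diet and genotype groups called 5 members, where edgeR called 4.36% of all tested genes. They were Hnrnpul1 (adjusted p = 0.00348), Hnrnpl (0.00360), Hnrnpu (0.00735), Srsf2 (0.0217, and 0.0784 with a title series term) and Hnrnpa0 (0.0374). Without WT HAMSAB female replicate 1 or 2, or male replicate 1, 2 or 3, it called 3 members. How many of all genes it called in these fits is not given here. Hnrnpl averaged 546 ± 127 CPM in WT on HAMSAB, 368 ± 149 in WT on control, 364 ± 119 in AD on zero fiber, 294 ± 84.4 in AD on control, 265 ± 85.6 in AD on HAMSAB and 254 ± 80.2 in WT on zero fiber (SD). The step from WT HAMSAB to WT control was not called (log2 0.57 ± 0.21, edgeR adjusted p = 0.212), and the SDs of the next groups overlap. In WT the control diet lay between the others, and in AD the highest mean was on zero fiber. The WT control group held a single library of the lower title series, with Hnrnpl at 563 CPM. The WT HAMSAB libraries of that series ran from 480 to 732 CPM. The place of the control diet in WT thus cannot be told apart from the title series. The map of group means puts control between the other diets in WT, and zero fiber highest in AD, for Hnrnpl, Hnrnpul1, Hnrnpu and Hnrnpa0. The rest of the order differed between these genes. Hnrnpu, for one, averaged 499 CPM in AD on zero fiber and 472 CPM in WT on control. Srsf2 had its second highest mean in AD on HAMSAB (210 ± 71.0 CPM).

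**Figure D3:**
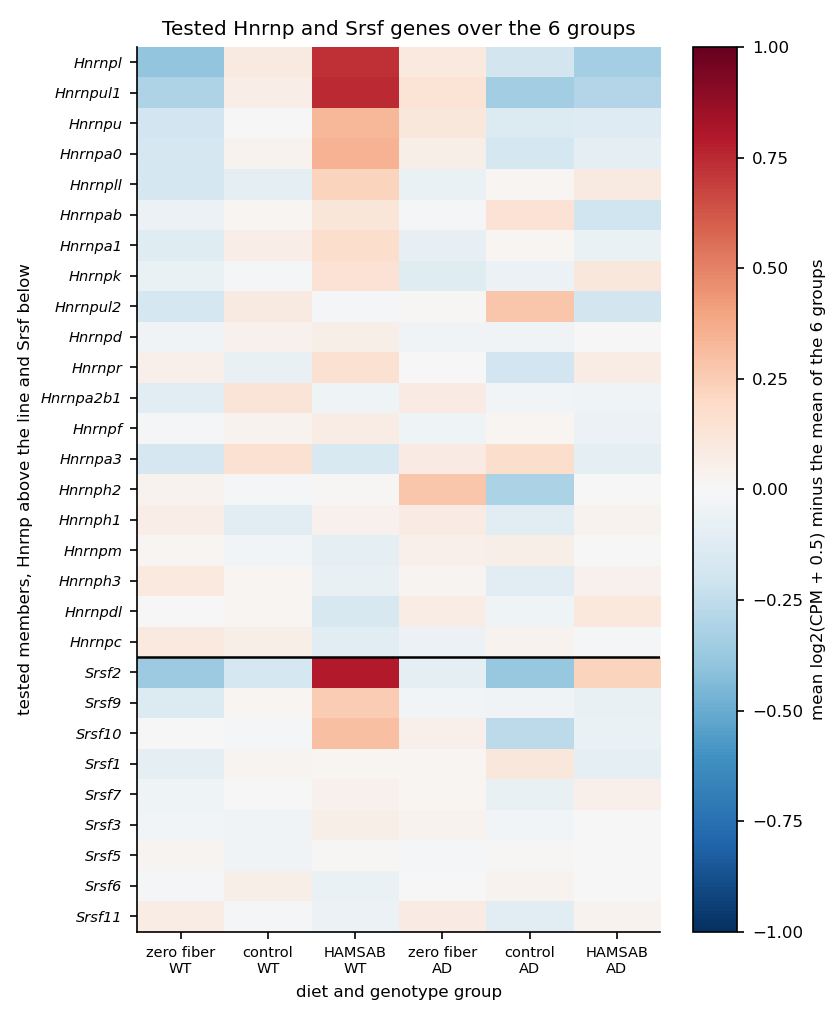
Mean log2(CPM + 0.5) of each tested member (rows) in each group (columns), minus its mean over the 6 groups, from blue (lower) to red (higher); the library of lowest depth is left out. WT on HAMSAB is the reddest column for Hnrnpl, Hnrnpul1, Hnrnpu, Hnrnpa0, Srsf2, Srsf9 and Srsf10, among others. Most of the other genes stay pale, and several of these, such as Hnrnpll, also had their highest mean CPM in WT on HAMSAB.

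In the other 10 comparisons edgeR called no member. Member counts at an unadjusted p under 0.05 are followed by the number of all 12121 tested genes at that p, then the share called. AD against WT gave 4 of 29 members on zero fiber (570 genes, 0.00825% called) and 2 on control (655 genes, 0% called). Within AD there were 4 for HAMSAB against zero fiber (1281, 0.239%) and 3 for HAMSAB against control (1859, 0.0743%, and 0.0660% higher). Zero fiber against control in AD gave 6 (1314, 0.0578%). Within WT they were 8 for HAMSAB against control (1615, 0.281%) and 2 for zero fiber against control (919, 0.00825%). The 2 other differences between genotypes gave 2 and 6 members (670 and 748 genes, 0% called). Females against males gave 5 (1272 genes, 0.124% called, and 0.0495% higher). DESeq2 and limma voom with quality weights also called no member in these 10 comparisons. The smallest unadjusted p among them was that of Hnrnph2, which binds G-rich RNA, in AD, with a mean of 36.7 ± 6.23 CPM in the zero fiber and 24.1 ± 7.61 CPM in the control libraries (log2 0.61 ± 0.15, edgeR adjusted p = 0.113).

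As whole families, both had their highest mean summed level in WT on HAMSAB when the title series were pooled. The 20 Hnrnp genes summed to 4143 ± 257 CPM there (SD, n = 8) and to 3247 ± 179 CPM in WT on zero fiber (n = 6), without overlap between libraries (3693 to 4490 against 3025 to 3535). The 11 Srsf genes summed to 1967 ± 242 and 1661 ± 53.7 CPM, with overlap. Group means of the other 4 groups ran from 3320 to 3668 CPM for Hnrnp and from 1625 to 1740 CPM for Srsf. The Srsf sum on HAMSAB in WT was 2139 CPM in the lower title series and 1680 CPM in the higher. In the higher series this was below the 1715 CPM of WT on zero fiber and the 1731 CPM of AD on zero fiber, so the order of the Srsf sums turned there. The Hnrnp sum was 4282 and 3913 CPM in these series.

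With the title series pooled, the ratio of the Hnrnp to the Srsf sum stayed within a narrow range. Its group means ran from 1.94 ± 0.09 in AD on HAMSAB to 2.13 ± 0.21 in WT on control, and was 1.96 ± 0.11 in WT on zero fiber and 2.12 ± 0.19 in WT on HAMSAB. Single libraries ran from 1.82 to 2.59, and all groups overlapped with the series pooled. In WT on HAMSAB the ratio ran from 1.93 to 2.09 in the lower and from 2.21 to 2.44 in the higher series. The WT zero fiber libraries of the higher series lay below the latter, at 1.85 and 1.95. The 6 called genes made up 41.7 ± 4.68% of the members' summed CPM in WT on HAMSAB and 29.5 ± 3.28% in WT on zero fiber, while the other members summed to 3548 ± 149 and 3456 ± 98.5 CPM. This split was made after the values were seen. The 6 genes were picked because they were called higher in this comparison, so their larger share follows from that choice and adds no support.

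**Figure D4:**
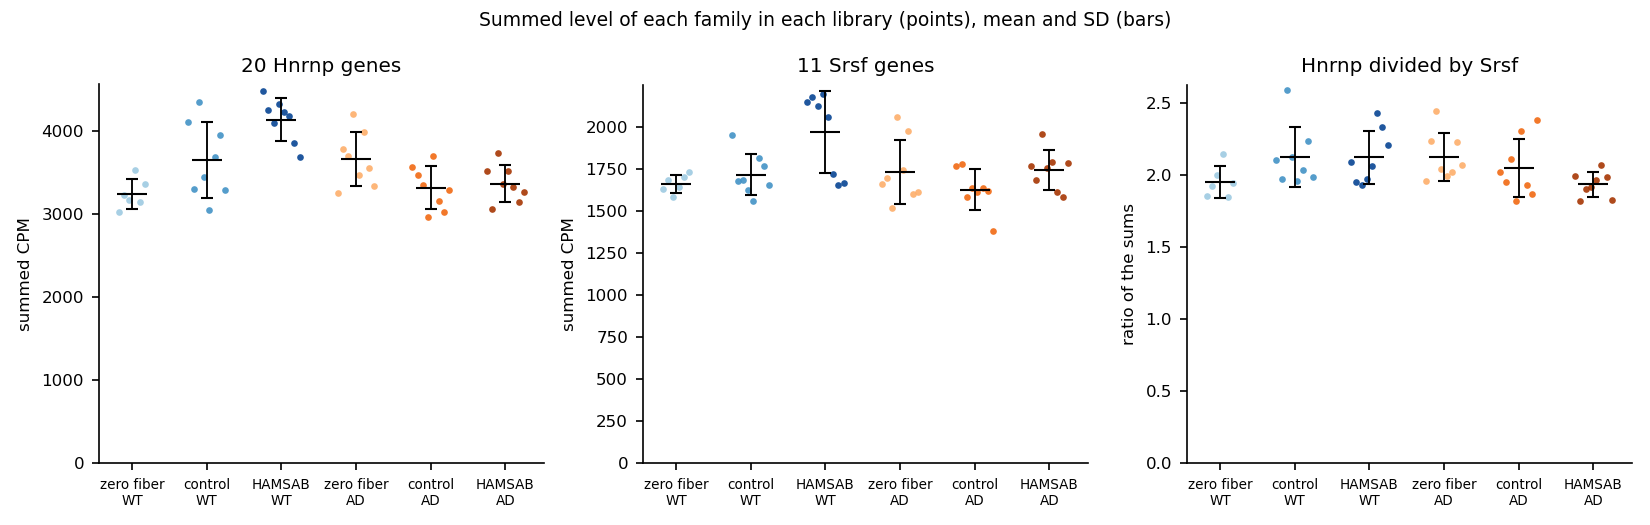
Summed CPM of the 20 Hnrnp genes (left), of the 11 Srsf genes (middle) and their ratio (right) in each library (points), by group, with mean (wide bar) and SD (error bars). With the title series pooled, WT on HAMSAB has the highest mean sum in both families, 4143 and 1967 CPM (for Srsf not within the higher series), and the ratio runs from 1.82 to 2.59.

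Across libraries, a subset of members went up and down with Hnrnpl also inside groups. Over 45 libraries, with that of lowest depth left out, Pearson's r of the deviations from the group means of log2 CPM was 0.94 for Hnrnpul1, 0.92 for Hnrnpu, 0.75 for Hnrnpa0 and 0.66 for Srsf9. Srsf3 (0.65) and Hnrnpa1 (0.55), which were called in no comparison and are named after their values were seen, came next. It was 0.43 for Srsf2, and negative for Hnrnpm (-0.36) and Hnrnpa2b1 (-0.35). For the paralog Hnrnpll it was 0.45. The points share their libraries and scaling, and no p is given. Computed across these libraries rather than within groups, r of Hnrnpl was 0.04 with log2 total count, -0.06 with the mitochondrial share, 0.26 with the library's slope on exon length and -0.53 with the TMM factor, and between -0.26 and 0.19 for summed markers of 10 cell types.

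**Figure D5:**
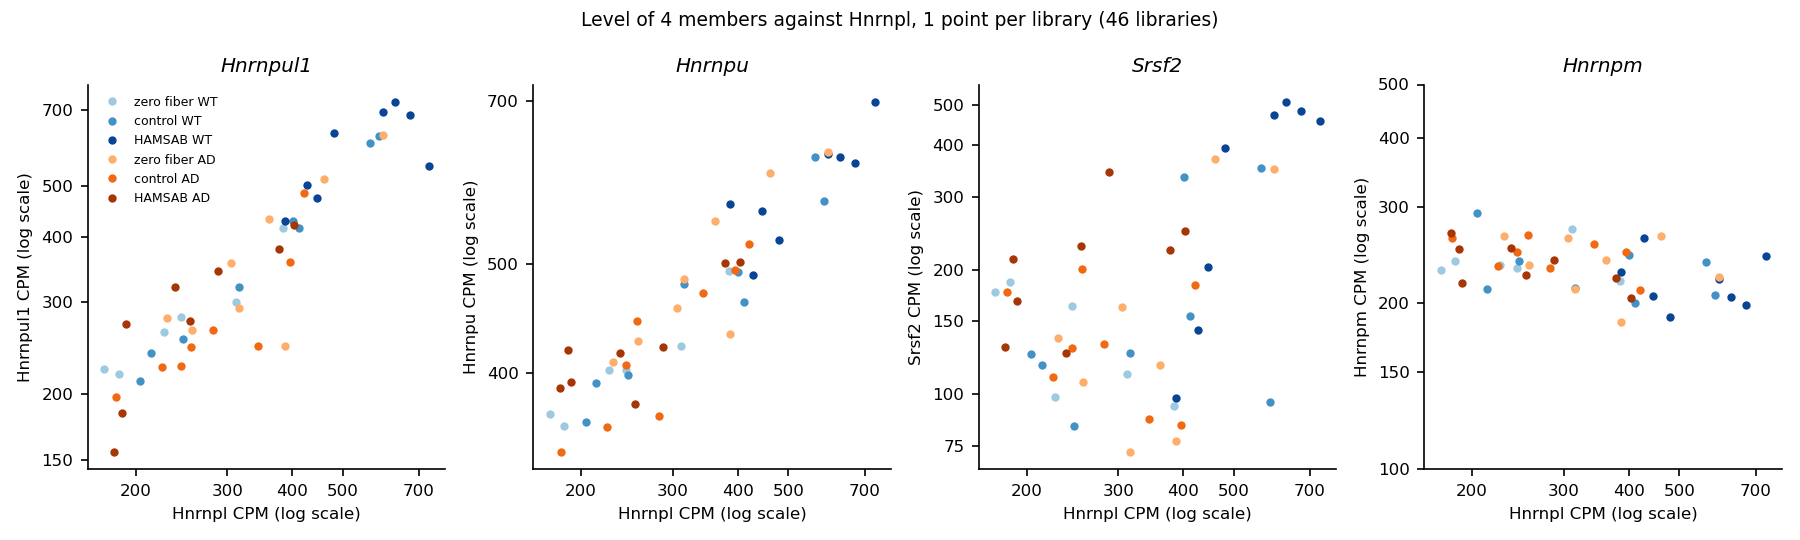
CPM of Hnrnpul1, Hnrnpu, Srsf2 and Hnrnpm (vertical log axes) against Hnrnpl (horizontal log axis) in the 46 libraries, coloured by group. Hnrnpul1 and Hnrnpu follow Hnrnpl closely, Srsf2 loosely, and Hnrnpm slightly falls.

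Among all tested genes, the closest to Hnrnpl by this measure was Myh9, the heavy chain of non-muscle myosin (r = 0.96). Arf6, a small GTPase of membrane traffic, followed at 0.94, and then Hnrnpul1, Gpbp1l1 (0.94), Snd1 (0.93), Khsrp (0.93) and Hnrnpu. Besides Hnrnpl itself, 21 of the 12121 tested genes reached an r of 0.9. Hnrnpul1 and Hnrnpu were the members among the closest 7.

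Other genes of the splicing machinery were read from lists of kinases and import, hnRNP-type proteins under other symbols, SR-related proteins, the core spliceosome and tissue-restricted regulators. In WT on HAMSAB against zero fiber, 1 of 10 tested kinase and import genes was called higher, Dyrk1a, a kinase that phosphorylates splicing factors (log2 0.70 ± 0.14, edgeR adjusted p = 0.00699). Of 16 tested hnRNP-type genes only Khsrp, a KH-domain protein of messenger RNA decay and splicing, was called (1.58 ± 0.31, edgeR adjusted p = 0.00455). Of 32 core spliceosome genes only Prpf4, a part of the U4/U6 particle, was called (0.65 ± 0.14, edgeR adjusted p = 0.00699), and of 10 tissue-restricted regulators only Nova1 (0.64 ± 0.16, adjusted p = 0.0207), while none of the 19 SR-related genes was. Over all tested genes 1.86% were called higher here, so counts of 0 or 1 in lists of this size say little about a list. The median log2 fold changes of the 5 lists ran from -0.06 to 0.07. On HAMSAB, AD was lower than WT for Dyrk1a (-0.77 ± 0.13), Prpf4 (-0.71 ± 0.12) and Khsrp (-1.43 ± 0.27), at edgeR adjusted p of 0.00101, 0.00101 and 0.00325. The F test also called Srpk2, an SR protein kinase (edgeR adjusted p = 0.0427), and Prpf6, a tri-snRNP bridge protein (adjusted p = 0.0218). Fits that left out 1 library were kept for the Hnrnp and Srsf members only. Whether the genes of these lists stay called in them was not checked.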

How the data were processed

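Microglial RNA was measured by RNA-seq. The deposited values are whole-number counts for each gene symbol and library, left unscaled by the authors. Per the submitters' processing notes the tools included STAR 2.5.2b and featureCounts 1.5.2, and the build was GRCm38 (mm10). Annotation release, strandedness and the handling of multimapping reads: not given in the sources used here, so members with close copies or overlapping genes are uncertain. All 46 libraries were fitted together over 12121 genes left by filterByExpr, with a mean for each of the 12 diet, genotype and sex groups, sexes weighted equally (R 4.3.3, edgeR 4.0.16, quasi-likelihood F test, TMM factors 0.918 to 1.25), in 14 comparisons. A gene was called when its p, adjusted by Benjamini and Hochberg's method over every tested gene, was under 0.05. CPM are counts per 1e6 of the TMM-adjusted library size. Alternatives used DESeq2 1.42.0 (its size factors, or its test), limma 3.58.1 (voom with quality weights), no filter, a title series term, fewer libraries or a length correction; values within each title series were added after seeing the data. Exon lengths and positions came from GENCODE M21 (GRCm38).

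The members and lists were chosen with earlier results of these data known. Genes named were Hnrnpl, the 3 highest and 2 lowest tested members of each family per length, every called member, members failing the filter, called genes of the splicing lists, and 4 more chosen after their values were seen (Hnrnpm, Hnrnpul2, Srsf3 and Hnrnpa1). The genes most like Hnrnpl were taken by r. A count of protein sequence features was planned and not run, as no protein table was used here.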

Additional observations from a re-analysis of the deposited data

Results flagged for a closer look

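In WT on HAMSAB, the Srsf9 level of male replicate 3, 347 CPM, stood apart from the other 7 libraries, the nearest of which was at 304 CPM. In WT on control, the Hnrnp to Srsf ratio of male replicate 1 was 2.59, with the nearest library at 2.24. Each gap exceeded the 95% critical value of Dixon's test for 8 samples. These were 2 of 54 groups of values checked, and chance flags about 1 in 20 groups.

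The response to HAMSAB against zero fiber differed between AD and WT in the test of that difference for Hnrnpl (log2 -1.66), Hnrnpul1 (-1.52), Hnrnpu (-0.80) and Hnrnpa0 (-0.73). In all 4 genes the fold change was above 0 in WT and below 0 in AD. No member was called for HAMSAB against zero fiber within AD, and these 4 genes were picked by the test of the difference.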

How the results depend on the processing

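No paired analysis was possible because the replicate numbers follow accession order and pair no libraries. The 6 genes called in WT on HAMSAB against zero fiber were called under all 8 alternatives, and no refitted alternative turned a called gene's sign; within the higher title series alone, Srsf2 was -0.26. On HAMSAB, AD against WT called 5 members with DESeq2 size factors, 5 with the DESeq2 test and 5 with only the libraries compared. It called 6 with voom and 6 with no filter, against 3. The calls over all genes rose as well, to 253, 274, 275, 382 and 464 in the same order, against 204. With no filter on low counts, edgeR called 2 members for AD against WT on zero fiber, 1 on control, 1 for HAMSAB against zero fiber in AD, 2 for HAMSAB against control in AD, 3 for zero fiber against control in AD, 3 for HAMSAB against control in WT, 2 for zero fiber against control in WT, and 1 and 3 for the other 2 differences between genotypes (HAMSAB, then zero fiber, against control). Over the whole table these fits called 93, 149, 204, 357, 269, 433, 183, 66 and 207 genes in the same order, against 0 to 34 with the filter; the cause was not tested. Leaving out 1 library at a time gave 0 to 6 members in WT on HAMSAB against zero fiber (0 without zero fiber male replicate 1 or 2, 3 without HAMSAB female replicate 1 or 2, HAMSAB male replicate 3 or zero fiber female replicate 3), 0 to 5 for the difference between genotypes, 3 to 7 in the F test (3 without HAMSAB WT female replicate 1 or 2 or male replicate 1, 2 or 3), 2 to 4 for AD against WT on HAMSAB (2 without AD male replicate 2, where Hnrnpu was lost), and 0 to 1 for HAMSAB against control in WT (Srsf2, without HAMSAB male replicate 4) and in AD (Hnrnpul2, named after its values were seen, without HAMSAB female replicate 2 or control female replicate 3). Counts over all genes moved in such fits too. Without AD zero fiber male replicate 3, the difference between genotypes called 6 genes and 0 members, against 131 and 4. The F test then called 659 genes and 7 members, against 528 and 5. For most of the other fits that left out 1 library, the count over all genes is not given in this report. In the higher title series, the Srsf sum was 1715 CPM in WT on zero fiber, 1680 in WT on HAMSAB and 1594 in AD on HAMSAB. The ratio was 2.33 and 2.03 in the last 2 groups. WT on control had a single library of the lower series, with sums of 4109 (Hnrnp) and 1949 CPM (Srsf). With a title series term, Srsf2 left the F test (adjusted p = 0.0784) and Hnrnpa0 the difference between genotypes (0.0655). Srsf4 and Srsf12 held too few counts to be tested, and low expression and depth were not told apart.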
